A study of Rattus norvegicus with 20 samples.

Results

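Insulin is released by exocytosis of secretory granules, and the 10 genes described here encode small Rab GTPases of those granules and proteins that act with them: Rab3a, Rab3b, Rab3c, Rab3d, Rab27a, Rab27b, Sytl4 (granuphilin), Rph3al (Noc2), Exph5 (Slac2-b) and Unc13a (Munc13-1). They were taken by gene symbol, all 10 were among the 23487 genes of the table, and 9 were above 0 in 50% or more of the libraries, the filter used here, and were tested. Exph5 did not pass that filter. The cells were INS-1 832/13, a glucose-responsive clone of a rat insulinoma line that is widely used as a model of the β-cell. The mRNA of 20 libraries was sequenced, with 4 libraries in each of 5 groups, named for the siRNA given: against Piezo1 and Piezo2 together (si-P1+2), against Piezo1 (si-P1), against Piezo2 (si-P2), an siRNA without a target (si-Ctrl) and cells left without transfection (untransfected). Piezo1 and Piezo2 are mechanically gated cation channels. The siRNAs were pools of oligonucleotides at 25 nM, transfected again after 48 h and left for another 48 h, and all groups were 1 cell line. Cells for transfection were seeded in medium without penicillin and streptomycin. The sources do not say which medium the untransfected cells had. Whether 25 nM was the dose of each pool or of both in si-P1+2 is not given in the sources used here. The sources do not say that the libraries of a group came from separate cultures, so the p-values describe how far these libraries scatter, and that scatter may be technical.

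Rab GTPases switch between a GDP-bound and a GTP-bound state, and the GTP-bound form on the granule membrane recruits effectors. Rab3 and Rab27 proteins sit on insulin granules. Granuphilin binds GTP-bound Rab27a and the plasma membrane SNARE machinery, and it docks granules; in mice without granuphilin fewer granules are docked while insulin release is higher. Noc2 binds both Rab3 and Rab27, Slac2-b binds Rab27, and Munc13-1 primes docked granules for fusion. RNA levels in a bulk sample cannot tell fewer cells expressing a gene from less RNA per cell.

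The libraries held 16679934 to 56926609 reads, recovered from the deposited normalized counts. Silencing was checked first. Piezo1 averaged 127 ± 15.4 normalized counts in si-P1+2, 125 ± 13.2 in si-P1 and 348 ± 35.7 in si-P2, against 313 ± 17.3 in si-Ctrl (SD, n = 4 each), and it fell by 1.33 on the log2 scale in si-P1 (limma adjusted p = 6.29e-07) and by 1.30 in si-P1+2 (adjusted p = 2.50e-06). Piezo2 was barely detected, at 10.0 ± 5.27 normalized counts in si-P1+2 and 6.83 ± 4.01 in si-P2 against 11.2 ± 2.50 in si-Ctrl (SD, n = 4 each), and neither difference passed the test (adjusted p = 0.796 and 0.255), so at this depth a loss of Piezo2 mRNA was not detectable, and the names si-P2 and si-P1+2 stand for the siRNA given. One control library stood apart. si-Ctrl replicate 3 had a median correlation of 0.937 with its own group, against at least 0.986 for every other library, and a score of 62.2 on the first principal component, against −16.3 to 14.1 for the other libraries. The counts of members called against si-Ctrl, and the member values that this library moved most, are therefore also given without it. β-cell markers were present in every group (Ins1, 57283 to 158490 normalized counts over the 20 libraries), together with Gcg of the α-cell list (1232 to 3336 normalized counts). The summed level of the 10 β-cell markers in the table was 177313 to 227294 in si-P1+2, 201106 to 264214 in si-P1 and 168592 to 215604 in si-P2, against 134814 to 237584 in si-Ctrl. These ranges overlapped. Iapp and Slc2a2 were called higher in si-P1 than in si-Ctrl. The other β-cell markers in the table, Ins1 among them, were not called in that comparison. Iapp, alone of these markers, was also called higher in si-P1 than in si-P2. The part of these differences in the results below was not tested.

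The promoters of the 3 genes that passed a test against si-Ctrl are shown first. They were picked by those results. Each is the 300 bases from 250 before to 50 after the annotated start, from RefSeq (assembly GRCr8), read 5′ to 3′ on the strand of the gene. Capitals mark, on either strand, GGGCGG, known as the GC box. They also mark CCAAT, an element bound by the factor NF-Y. The third motif marked is TGACG, a half-site of the cyclic AMP response element.
Rab3a, chr16:18722224-18722523, minus strand: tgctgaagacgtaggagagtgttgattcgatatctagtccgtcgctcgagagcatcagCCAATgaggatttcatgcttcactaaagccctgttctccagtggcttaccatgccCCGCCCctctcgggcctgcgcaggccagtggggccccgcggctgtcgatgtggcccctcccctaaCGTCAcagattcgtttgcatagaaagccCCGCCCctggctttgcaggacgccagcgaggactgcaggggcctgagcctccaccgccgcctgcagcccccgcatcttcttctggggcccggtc
Rab27a, chr8:82663123-82663422, plus strand: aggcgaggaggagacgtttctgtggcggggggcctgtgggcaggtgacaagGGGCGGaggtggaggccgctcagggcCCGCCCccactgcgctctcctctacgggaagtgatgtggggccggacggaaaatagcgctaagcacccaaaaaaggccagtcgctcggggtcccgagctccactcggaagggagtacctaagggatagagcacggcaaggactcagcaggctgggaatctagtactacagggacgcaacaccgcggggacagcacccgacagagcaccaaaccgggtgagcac
Sytl4, chrX:101479102-101479401, minus strand: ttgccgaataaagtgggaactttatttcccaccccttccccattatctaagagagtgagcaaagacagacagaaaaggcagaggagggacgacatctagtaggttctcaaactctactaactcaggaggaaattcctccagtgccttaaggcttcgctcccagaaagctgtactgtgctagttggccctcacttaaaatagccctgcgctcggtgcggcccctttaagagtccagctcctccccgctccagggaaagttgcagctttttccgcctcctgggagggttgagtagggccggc

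The window of Rab3a held 2 GC boxes, 1 CCAAT and 1 TGACG, that of Rab27a held 2 GC boxes, and that of Sytl4 held none of these motifs in this window. Of all 33469 promoter windows of that length, 33.1% held GGGCGG, 37.5% held CCAAT and 21.2% held TGACG. The GC content was 62.7% for Rab3a, 64.3% for Rab27a and 52.7% for Sytl4, against a median of 51.7% over all windows. Also searched on both strands were TGACGTCA (1.83% of all windows), CANNTG (72.1%) and TATAAA (14.2%), of which the Rab27a window held 1 CANNTG and the other 2 windows held none. TGACG lies within TGACGTCA, so those searches overlap. GC boxes also occurred in members that were not called against si-Ctrl or not tested. The windows of Rab3d, Exph5 and Unc13a held 2 each and those of Rab3b and Rab3c held 1 each. The windows of Rab27b and Rph3al held 0. A link between these motifs and the calls was not tested. These matches are descriptions of sequence and are not binding sites.

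Against si-Ctrl, Rab27a and Rab3a were higher in si-P1, Sytl4 was higher in si-P2 and Rab27a was higher in si-P1+2. No member was called lower in any of these comparisons, which share the si-Ctrl libraries. In si-P1 against si-Ctrl, 2 of the 9 members tested were called higher and 0 lower, where 13.3% of all 15802 genes tested were called in either direction, 7.07% higher and 6.28% lower. With totals made equal the split over all genes was 1374 higher and 741 lower, in place of 1117 higher and 992 lower, while the same 2 members were called. In si-P2 against si-Ctrl it was 1 higher and 0 lower, where 2.08% of all genes were called in either direction, 0.88% higher and 1.2% lower. In si-P1+2 against si-Ctrl it was again 1 higher and 0 lower, where 4.76% of all genes were called, 2.41% higher and 2.35% lower. Without si-Ctrl replicate 3 the counts were 5, 1 and 2 members, all higher, where 24.2%, 2.84% and 13.6% of all genes were called in the 3 comparisons. Each gene is a large step in a share over 9 genes, and nothing is read from these shares. The median log2 fold change over the members tested was 0.34 in si-P1, 0.06 in si-P2 and 0.24 in si-P1+2 relative to si-Ctrl, beside 0.02, 0.01 and 0.02 over all genes tested.

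**Figure D1:**
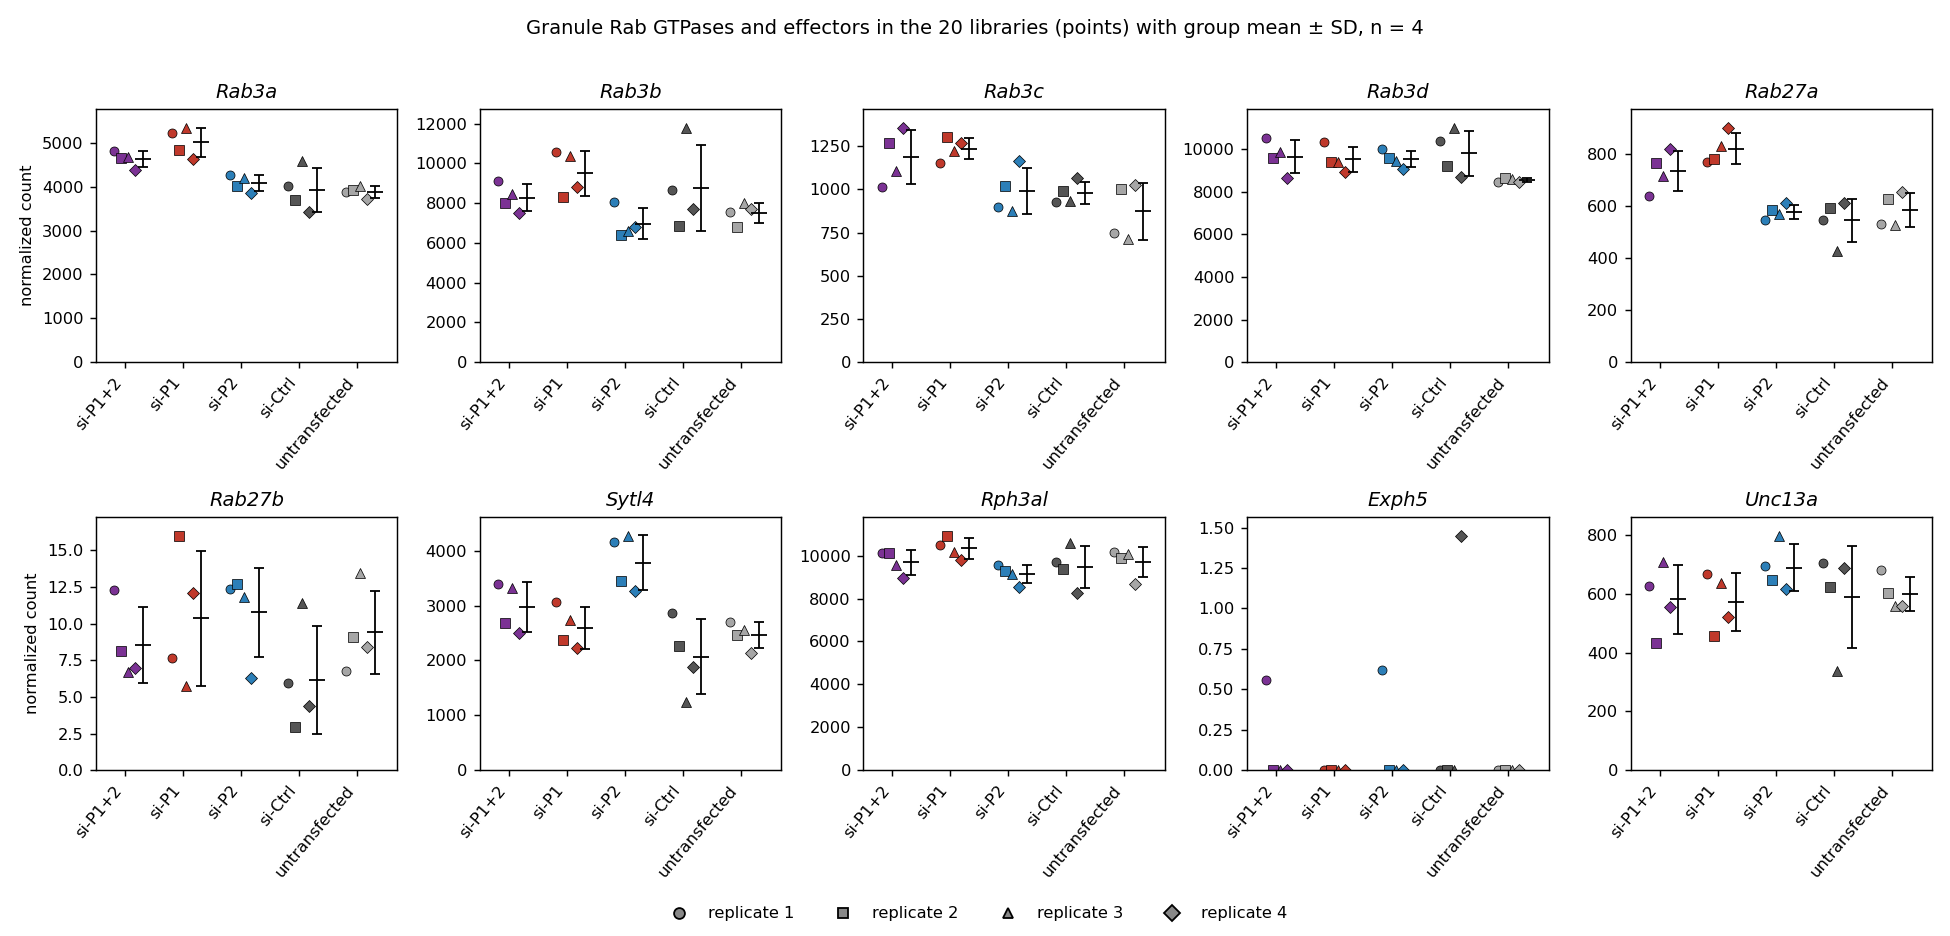
Normalized count of each of the 10 genes (vertical axes, starting at 0) in the 5 groups, with a point for each of the 20 libraries, the marker shape for the replicate number and, except for Exph5, the group mean ± SD (n = 4) to the right of the points. Rab27a is above the si-Ctrl libraries in all 4 si-P1 libraries, Sytl4 is highest in si-P2, and Exph5 is at 0 in 17 libraries.

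Of the GTPases, Rab27a showed the clearest difference. Rab27a (ENSRNOG00000052499), which recruits granuphilin and other effectors to the granule, had 640, 766, 718 and 822 normalized counts in si-P1+2 and 772, 782, 832 and 902 in si-P1. It had 549, 585, 571 and 611 in si-P2, against 548, 594, 429 and 612 in si-Ctrl and 533, 630, 527 and 656 in untransfected cells. All si-P1 and si-P1+2 libraries lay above all si-Ctrl libraries, while the si-P2 libraries lay within the si-Ctrl range. The log2 fold change on the log2(value + 1) scale was 0.60 in si-P1 (SE 0.11, limma adjusted p = 0.000835), a 1.52-fold level, and it passed the test under all 16 alternatives, with 0.49 (adjusted p = 0.000604) without si-Ctrl replicate 3. In si-P1+2 it was 0.44 (SE 0.11, adjusted p = 0.0207), 1.36-fold, and this call was lost when si-P1+2 replicate 2, 3 or 4 was left out (adjusted p = 0.0639, 0.0508 and 0.0831), with untransfected cells as controls (0.33, adjusted p = 0.0669) or when only these 2 groups were fitted (adjusted p = 0.228). It was 0.33 (adjusted p = 0.0207) without si-Ctrl replicate 3. In si-P2 it was 0.10 (95% confidence interval −0.13 to 0.32, adjusted p = 0.617).

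Rab3a (ENSRNOG00000019433), the major Rab3 of neurons and of many endocrine cells, had 4825, 4656, 4672 and 4378 normalized counts in si-P1+2 and 5226, 4832, 5342 and 4633 in si-P1. It had 4272, 4024, 4191 and 3851 in si-P2, against 4016, 3693, 4582 and 3429 in si-Ctrl and 3873, 3927, 4015 and 3709 in untransfected cells. The si-P1 libraries did not overlap with si-Ctrl, by a gap of 51 normalized counts above si-Ctrl replicate 3. Rab3a rose by 0.36 on the log2 scale in si-P1 (SE 0.07, adjusted p = 0.00254), 1.28-fold, a call lost when only si-P1 and si-Ctrl were fitted (adjusted p = 0.0915). In si-P1+2 the log2 fold change was 0.24 (SE 0.07, adjusted p = 0.0607), which did not pass. Without si-Ctrl replicate 3 the values were 0.43 in si-P1 (adjusted p = 3.81e-05) and 0.32 in si-P1+2 (adjusted p = 0.00134), so the second passed only when that library was left out or under 4 of the other alternatives. In si-P2 it was 0.06 (95% confidence interval −0.09 to 0.22, adjusted p = 0.637).

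The other Rab3 isoforms did not pass against si-Ctrl. Rab3c (ENSRNOG00000011623), an isoform best known from neurons, had 1155, 1301, 1223 and 1267 normalized counts in si-P1 against 928, 991, 931 and 1067 in si-Ctrl. These groups did not overlap, and the log2 fold change of 0.34 (SE 0.12) had an adjusted p of 0.0709 in limma and 0.0473 in DESeq2. With untransfected cells as controls it was 0.52 (adjusted p = 0.00484), and without si-Ctrl replicate 3 it was 0.31 (adjusted p = 0.0814). In all, 3 members (Rab3a, Rab3c and Rab27a) did not overlap between si-P1 and si-Ctrl, where 14.1% of all genes tested did not. Between si-P2 and si-Ctrl 1 member did not overlap (Sytl4, 8.61% of all genes), and between si-P1+2 and si-Ctrl 1 member (Rab27a, 9.08%).

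Rab3b (ENSRNOG00000008001) had 10571, 8288, 10347 and 8806 normalized counts in si-P1 and 8082, 6410, 6581 and 6818 in si-P2, against 8680, 6859, 11786 and 7717 in si-Ctrl. The si-P1 libraries lay within the si-Ctrl range, whose top was replicate 3, the highest of all 20 libraries, and 3 of the 4 si-P2 libraries lay below that range. The log2 fold change was 0.14 in si-P1 (adjusted p = 0.542) and −0.31 in si-P2 (adjusted p = 0.197); without si-Ctrl replicate 3 these were 0.29 (adjusted p = 0.0381) and −0.15 (adjusted p = 0.490). Rab3d (ENSRNOG00000011582), the isoform of exocrine and other secretory granules, was the most even of the Rab3 genes, with group means of 9648 in si-P1+2, 9520 in si-P1, 9535 in si-P2, 9814 in si-Ctrl and 8547 in untransfected cells. Its log2 fold change against si-Ctrl was −0.02 in si-P1+2, −0.04 in si-P1 and −0.04 in si-P2, and the 95% confidence intervals together ran from −0.19 to 0.13. With si-Ctrl replicate 3 left out these values were 0.04, 0.02 and 0.02.

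Rab27b (ENSRNOG00000012176), the paralogue of Rab27a, was near the limit of detection. It had 3 to 22 reads in a library, 197 in all, and group means of 8.52 ± 2.60 normalized counts in si-P1+2, 10.4 ± 4.61 in si-P1 and 10.8 ± 3.02 in si-P2, against 6.16 ± 3.71 in si-Ctrl and 9.42 ± 2.84 in untransfected cells (SD, n = 4 each). The log2 fold change in si-P2 was 0.81 with a 95% confidence interval of 0.05 to 1.56 (adjusted p = 0.220), so these few reads placed the difference no more closely than that range. In si-P1 it was 0.71 (adjusted p = 0.226), and 1.02 (adjusted p = 0.0402) without si-Ctrl replicate 3.

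**Figure D2:**
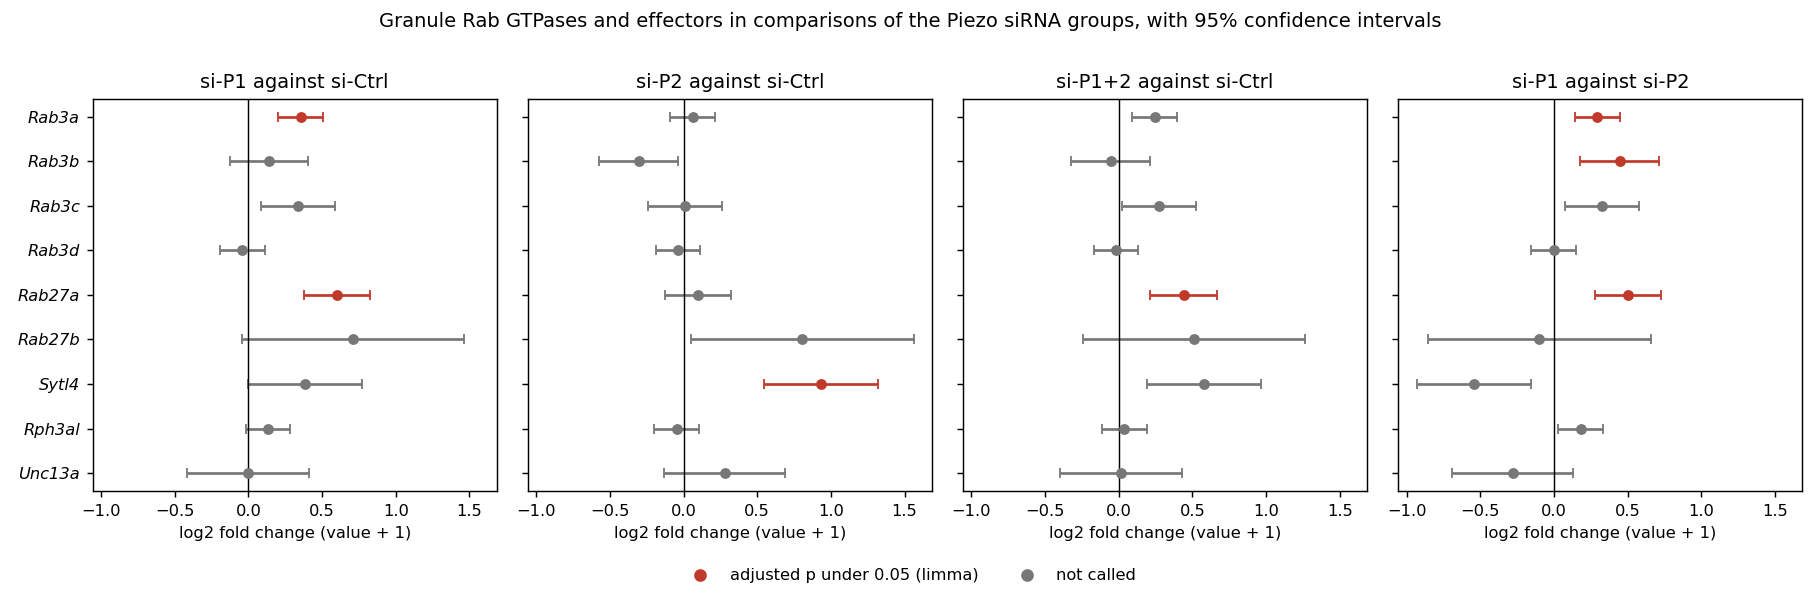
Log2 fold change on the log2(value + 1) scale (horizontal axes) of the 9 genes tested in 4 comparisons, with 95% confidence intervals and red for an adjusted p under 0.05 in limma. Red points are Rab3a and Rab27a in si-P1 against si-Ctrl, Sytl4 in si-P2 against si-Ctrl, Rab27a in si-P1+2 against si-Ctrl, and Rab3a, Rab3b and Rab27a in si-P1 against si-P2.

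Among the effectors, Sytl4 (ENSRNOG00000003526), which encodes granuphilin, varied the most between groups. It had 3403, 2687, 3328 and 2504 normalized counts in si-P1+2 and 3067, 2366, 2739 and 2220 in si-P1. It had 4158, 3455, 4275 and 3261 in si-P2, against 2874, 2266, 1241 and 1881 in si-Ctrl and 2701, 2470, 2556 and 2136 in untransfected cells. All si-P2 libraries were above all si-Ctrl and all untransfected libraries, and si-Ctrl replicate 3 was the lowest of the 20. Sytl4 rose by 0.93 on the log2 scale in si-P2 (SE 0.18, 95% confidence interval 0.54 to 1.32, limma adjusted p = 0.0121), 1.90-fold. Without si-Ctrl replicate 3 it was 0.71 (adjusted p = 0.0113). The call was lost without si-P2 replicate 3 (0.87, adjusted p = 0.0571), with untransfected cells as controls (0.61, adjusted p = 0.131) and when only these 2 groups were fitted (adjusted p = 0.275). The log2 fold change was 0.58 in si-P1+2 (adjusted p = 0.0814) and 0.38 in si-P1 (adjusted p = 0.196), and without si-Ctrl replicate 3 these were 0.36 (adjusted p = 0.115) and 0.16 (adjusted p = 0.470).

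Rph3al (ENSRNOG00000061429), encoding Noc2, had 10142, 10147, 9554 and 8939 normalized counts in si-P1+2, 10496, 10926, 10179 and 9785 in si-P1 and 9556, 9303, 9124 and 8556 in si-P2, against 9683, 9370, 10578 and 8237 in si-Ctrl. The si-Ctrl range held most libraries of every Piezo siRNA group. The log2 fold change in si-P1 was 0.13 (adjusted p = 0.262), or 0.19 (adjusted p = 0.0484) without si-Ctrl replicate 3. Unc13a (ENSRNOG00000018452), encoding the priming protein Munc13-1, had 629, 431, 709 and 555 normalized counts in si-P1+2, 668, 457, 638 and 523 in si-P1 and 695, 648, 798 and 618 in si-P2, against 707, 625, 336 and 689 in si-Ctrl. The groups overlapped throughout, and the log2 fold change was 0.02 in si-P1+2, 0.00 in si-P1 and 0.28 in si-P2 (adjusted p = 0.978, 0.997 and 0.416). Leaving out si-Ctrl replicate 3, its lowest library, gave −0.23, −0.25 and 0.03 (adjusted p = 0.338, 0.235 and 0.951). Its 95% confidence interval in si-P1 ran from −0.41 to 0.41, which leaves differences of that size undetected.

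Exph5 (ENSRNOG00000025115), encoding Slac2-b, had 1 read in si-P1+2 replicate 1, 1 read in si-P2 replicate 1 and 2 reads in si-Ctrl replicate 4. The other 17 libraries were at 0, and a count of 0 allows up to 3 reads, or 1.81 to 5.71 normalized counts depending on the depth of the library. This limit covers counting error only. No fold change is given.

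The comparison of si-P1 with si-P2 asked whether the single siRNA pools left the same granule genes at the same level. The si-Ctrl libraries do not enter its fold changes, but they share in the estimate of the spread. With only si-P1 and si-P2 fitted, 6 members were called instead of 3, and 4072 of the 15802 genes tested instead of 2325. Rab3a, Rab3b and Rab27a were higher in si-P1 than in si-P2. They were 3 of the 9 members tested, with 0 called lower, where 14.7% of all genes tested were called in either direction, 8.22% higher and 6.49% lower. The values given above for Rab27a were 772 to 902 normalized counts in si-P1 and 549 to 611 in si-P2, without overlap, a log2 fold change of 0.50 (SE 0.11, adjusted p = 0.00339). For Rab3a the log2 fold change was 0.29 (SE 0.07, adjusted p = 0.00998), again without overlap. Both were called in all 15 alternatives. For Rab3b it was 0.44 (SE 0.13, adjusted p = 0.0234), and leaving out si-P1 replicate 1 or 3 or si-P2 replicate 2, 3 or 4 lost the call (adjusted p = 0.0527 to 0.0790).

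Same-numbered libraries of si-P1 and si-P2 deviated together, and with the replicate number as a block 6 members were called instead of 3, where 23.6% of all genes were called in that fit. Rab3c (0.33, adjusted p = 0.00246) and Rph3al (0.18, adjusted p = 0.0100) were then called higher in si-P1, and Sytl4 (−0.55, adjusted p = 0.0184) lower, against adjusted p of 0.0744, 0.107 and 0.0535 without the block. Each of these 6 genes differed in the same direction in 4 of 4 same-numbered pairs. For all but Rab3c this follows from the lack of overlap between the groups. For Sytl4 the lowest si-P2 library (3261) lay above the highest si-P1 library (3067). In all, 5 members did not overlap between si-P1 and si-P2 (Rab3a, Rab3b, Rab27a, Sytl4 and Rph3al), where 27.1% of all genes tested did not. Rab3d differed by 0.00 on the log2 scale (95% confidence interval −0.15 to 0.15).

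**Figure D3:**
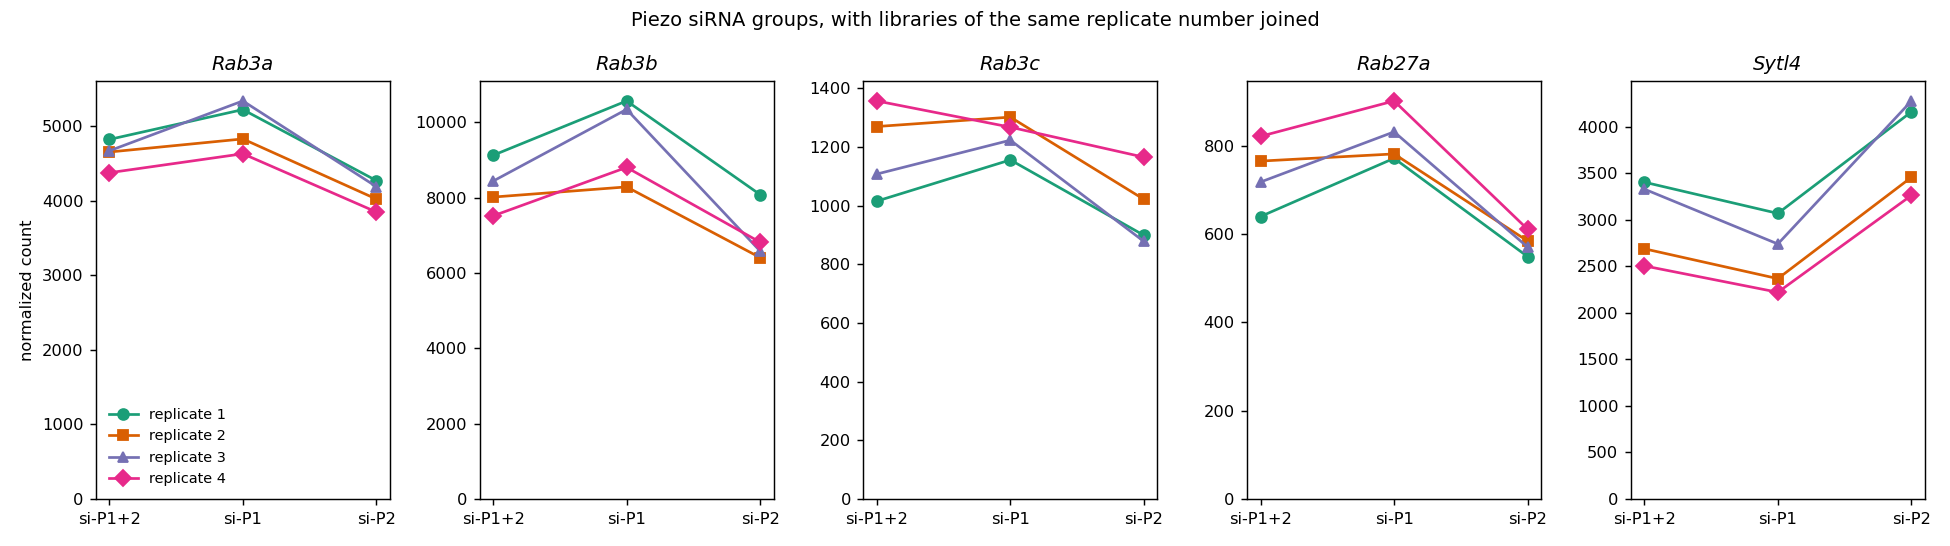
Normalized count (vertical axes, starting at 0) of 5 genes in the 3 Piezo siRNA groups, with lines joining libraries of the same replicate number. From si-P1 to si-P2 all 4 lines go down for Rab3a, Rab3b, Rab3c and Rab27a and all 4 go up for Sytl4, and the order of the replicates is similar in each group.

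The lines of the plot of same-numbered libraries also showed differences between replicate numbers that recurred across groups. Sytl4 was higher in replicates 1 and 3 (2739 to 4275 normalized counts over the Piezo siRNA groups) than in replicates 2 and 4 (2220 to 3455) within each Piezo siRNA group. Rab3c had its higher values in replicates 2 and 4 of each Piezo siRNA group. The labels do not say what the replicate number stands for.

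With both siRNA pools, the group means lay mostly between those of si-P1 and si-P2. Rab3a, Rab3b, Rab3c, Rab27a, Sytl4, Rph3al and Unc13a had group means in si-P1+2 between the means of the single Piezo siRNA groups. In si-P1+2 against si-P1, limma, edgeR and DESeq2 called 0 of the 9 members, and 0 had an unadjusted p under 0.05, where 0.0443% of all genes tested were called and 932 genes had an unadjusted p under 0.05. The log2 difference of Rab27a was −0.16 (95% confidence interval −0.39 to 0.06) and that of Sytl4 0.20 (−0.19 to 0.58), so smaller differences would not have been detected. Same-numbered libraries of si-P1+2 and si-P1 deviated together, and the replicate block also called 0 members, where it called 93 of all genes. The lowest adjusted p of a member in that fit was 0.439, for Rab3a (−0.11, SE 0.05). In si-P1+2 against si-P2, limma and edgeR called 0 members and DESeq2 called 1, Rab27a (adjusted p = 0.0319), where DESeq2 called 5.51% of all genes; 3 had an unadjusted p under 0.05 in limma, as did 2534 of the 15802 genes tested, and limma called 2.5% of all genes. Rab27a (0.34, adjusted p = 0.102) and Rab3a (0.18, adjusted p = 0.216) did not overlap between these groups, where 18% of all genes did not. Same-numbered libraries of these groups also deviated together, and with the replicate block, which called 8.61% of all genes, 3 members were called higher in si-P1+2, namely Rab27a (adjusted p = 0.0123), Rab3c (0.26, adjusted p = 0.0272) and Rab3a (adjusted p = 0.0301).

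Whether the Piezo1 siRNA acted differently where the Piezo2 siRNA was also present was tested as an interaction. limma, edgeR and DESeq2 called 0 of the 9 members, 1 had an unadjusted p under 0.05, as did 1540 of all genes, and 0.00633% of all genes tested were called. That 1 member was Sytl4. The Piezo1 siRNA went with a log2 difference of −0.35 between si-P1+2 and si-P2 and of 0.38 between si-P1 and si-Ctrl, a difference of −0.73 (SE 0.26, adjusted p = 0.399). For Rab27a the difference was −0.26 (SE 0.15, adjusted p = 0.568). With si-Ctrl replicate 3 left out the differences were −0.51 for Sytl4 (adjusted p = 0.356) and −0.15 for Rab27a (adjusted p = 0.725).

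**Figure D4:**
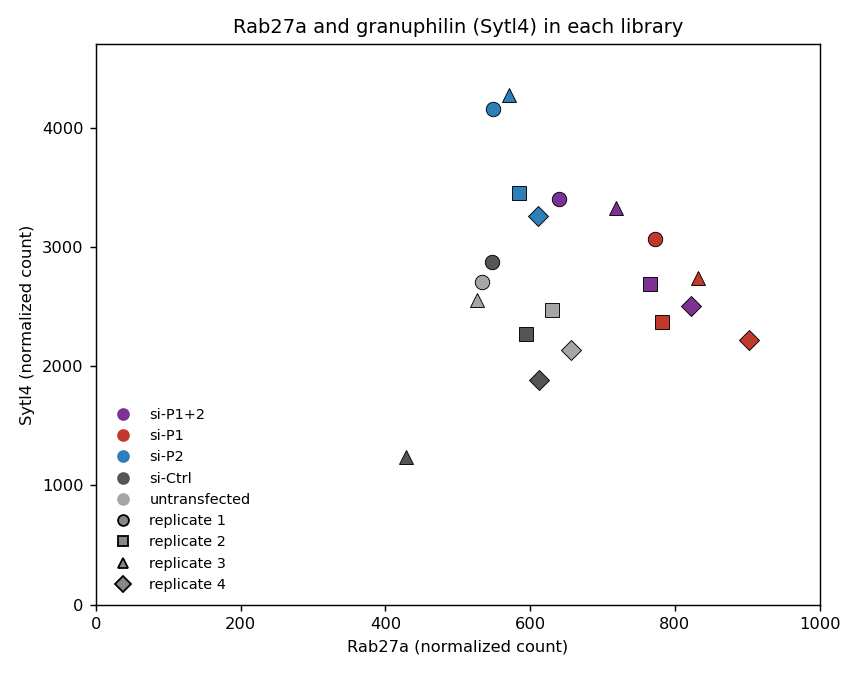
Normalized count of Sytl4 (vertical axis) against that of Rab27a (horizontal axis) in each of the 20 libraries, with the color for the group and the marker for the replicate number. The si-P1 libraries lie to the right at 772 to 902 for Rab27a, and the si-P2 libraries lie at the top at 3261 to 4275 for Sytl4. The si-P1+2 libraries lie at 640 to 822 for Rab27a and 2504 to 3403 for Sytl4, with replicate 4 inside the si-P1 ranges. si-Ctrl replicate 3 is the lowest on both axes.

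Rab27a and its effector granuphilin thus took their highest values in different groups, Rab27a in si-P1 and Sytl4 in si-P2. Over the 20 libraries, which share 5 groups, Pearson's r between them was 0.12, and −0.30 without si-Ctrl replicate 3. The most alike pair was Rab3c and Rab27a, with r of 0.83 (0.88 without that library). Rab3a had r of 0.69 with Rab3b and 0.69 with Rph3al. Sytl4 and Unc13a had r of 0.72, which was 0.50 without si-Ctrl replicate 3, the lowest library for both.

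Outside the members, genes whose log2 values over the 20 libraries were among the most like those of Sytl4, of 10967 genes compared, were Tshz1 (r = 0.97), March8 (0.94), Sec16a (0.94) and Gtf3c4 (0.93). Without si-Ctrl replicate 3, r was 0.96 for Tshz1, which stayed first, and 0.89 to 0.91 for the other 3, which then ranked 11 to 23. Tshz1 averaged 6088 ± 325 normalized counts in si-P2, against 4094 ± 1192 in si-Ctrl (SD, n = 4 each). These correlations are descriptions of libraries that share groups.

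Transfection, together with any difference in medium, was assessed by comparing si-Ctrl with untransfected cells. limma, edgeR and DESeq2 called 0 of the 9 members, 1 had an unadjusted p under 0.05, as did 1569 of all genes, and 0.0886% of all genes tested were called. That member was Rab3d, with 10368, 9187, 11001 and 8701 normalized counts in si-Ctrl against 8477, 8664, 8586 and 8460 in untransfected cells. The groups did not overlap (1 member, where 4.08% of all genes did not), and the log2 fold change was 0.19 (SE 0.07, adjusted p = 0.396). Same-numbered libraries of these groups deviated together, and with the replicate block Rab3d had an SE of 0.05 and an adjusted p of 0.0821. That fit called 0 members and 207 of all genes. Without the block, Rab3b was 0.19 higher (adjusted p = 0.562), Sytl4 differed by −0.32 (adjusted p = 0.548) and Rab27a by −0.11 (adjusted p = 0.672), all with overlapping groups. Leaving out si-Ctrl replicate 3 gave 0.04, −0.09 and 0.00, and 0.14 for Rab3d (adjusted p = 0.625).

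The other genes of the pathway were taken from a list of 34, of which 33 were in the table and tested: 14 regulators of Rab proteins (exchange factors, GTPase-activating proteins, GDP dissociation inhibitors and the prenylation machinery) and 19 other effectors and priming proteins. In si-P1 against si-Ctrl 3 were higher, 3 lower and 27 not called; in si-P2 0 were higher, 2 lower and 31 not called; in si-P1+2 2 were higher, 2 lower and 29 not called. The background shares are those given above for each comparison. The median log2 fold change over the list was 0.00 in si-P1, 0.18 in si-P2 and 0.04 in si-P1+2. Without si-Ctrl replicate 3 the counts were 3 higher and 9 lower in si-P1, 0 higher and 1 lower in si-P2 and 4 higher and 5 lower in si-P1+2. In those fits 24.2%, 2.84% and 13.6% of all genes were called.

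Of the 19 other effectors and priming proteins, 3 were called in si-P1, 1 in si-P2 and 4 in si-P1+2. Of all genes tested, 13.3%, 2.08% and 4.76% were called in these comparisons. Mlph, encoding melanophilin, which links Rab27a to myosin Va in melanocytes, had 11.9, 19.6, 19.04 and 14.1 normalized counts in si-P1 against 1.48, 2.94, 6.34 and 2.17 in si-Ctrl. It rose by 2.11 on the log2 scale in si-P1 (SE 0.37, adjusted p = 0.000627, called in all 16 alternatives), but its libraries held only 1 to 21 reads. In si-P1+2 Mlph was 1.51 higher (adjusted p = 0.0196, lost in 6 of 16 alternatives). Coro1c, an actin-binding coronin known to bind GDP-bound Rab27a in insulin-secreting cells, had 12645, 10902, 11241 and 10567 normalized counts in si-P1+2 and 11203, 10926, 10173 and 10582 in si-P1, against 15110, 14999, 16656 and 16672 in si-Ctrl. Every si-P1 and si-P1+2 library lay below every si-Ctrl library. Coro1c fell by 0.56 in si-P1 (adjusted p = 3.08e-05) and by 0.49 in si-P1+2 (adjusted p = 0.000468), and both calls were made in all 16 alternatives. Myrip, a Rab27a effector that binds myosins and actin, had 1470, 1457, 1408 and 1345 normalized counts in si-P2 against 2202, 2003, 1591 and 2000 in si-Ctrl, without overlap, and it fell by 0.45 (SE 0.08, adjusted p = 0.00537, lost only when these 2 groups alone were fitted). In si-P1+2 Myrip was 0.28 lower (adjusted p = 0.0467), a call lost in 9 of 16 alternatives.

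**Figure D5:**
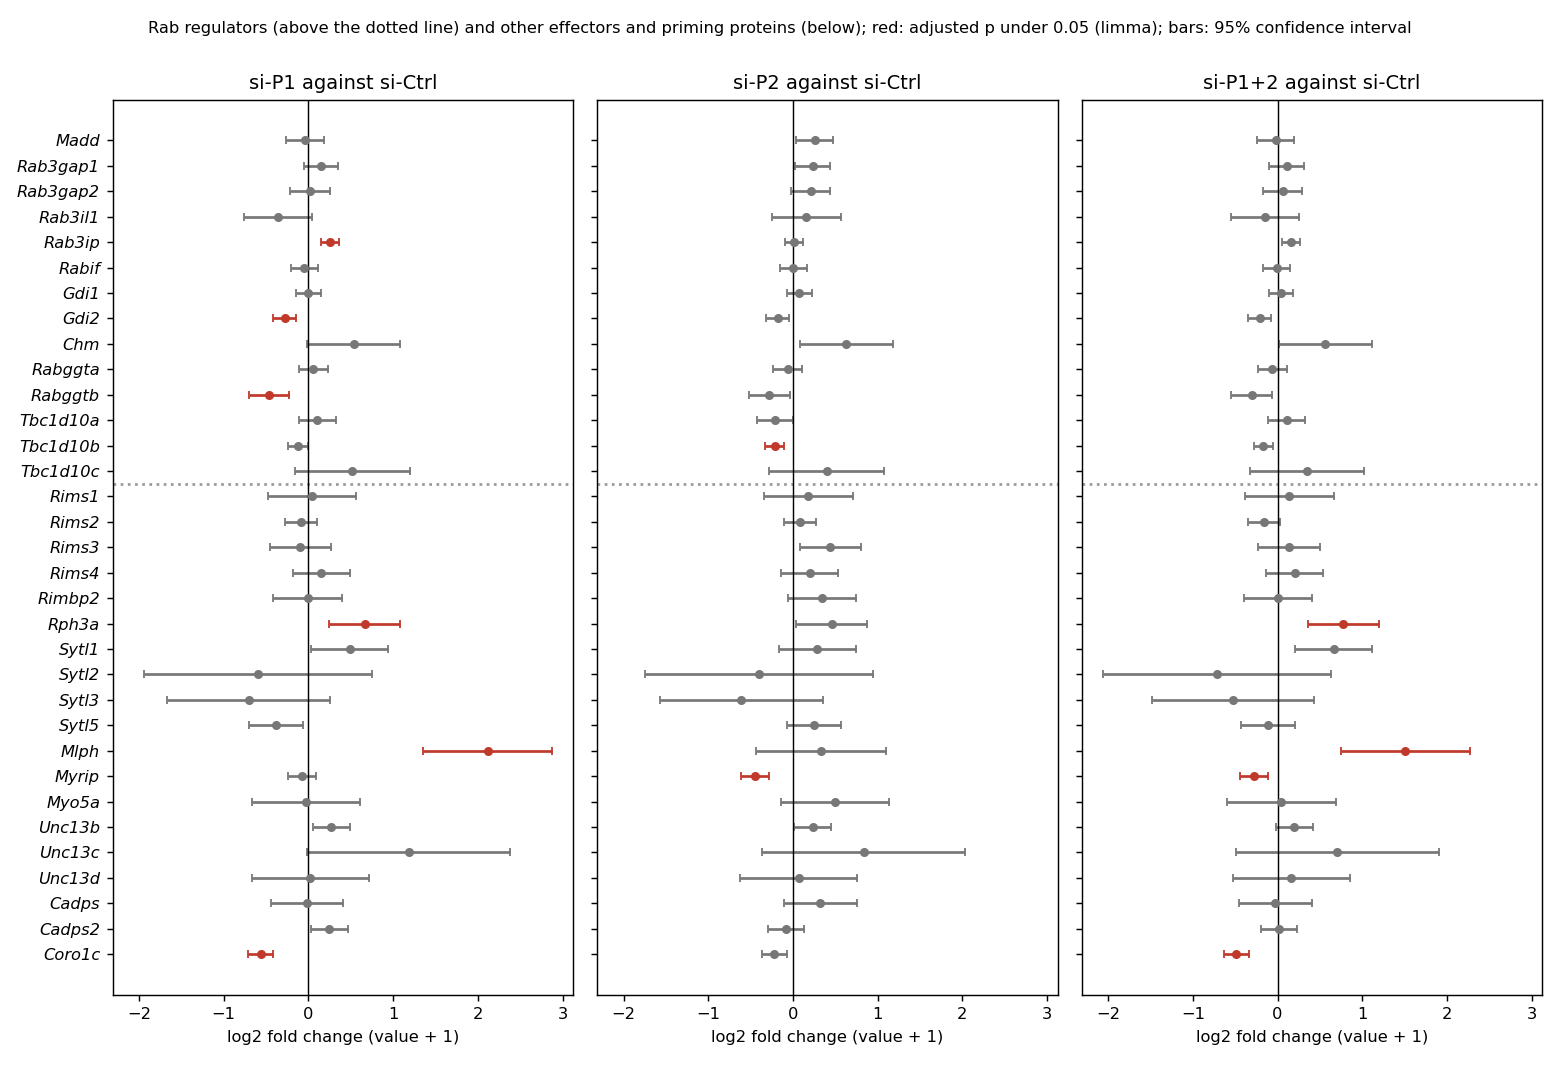
Log2 fold change on the log2(value + 1) scale (horizontal axes) of the 33 other pathway genes against si-Ctrl, with 95% confidence intervals, Rab regulators above the dotted line and other effectors and priming proteins below it, and red for an adjusted p under 0.05 in limma. In si-P1 and in si-P1+2 Mlph and Rph3a are among the red points to the right of 0 and Coro1c among those to the left; in si-P2 the red points are Myrip and Tbc1d10b, both to the left.

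Rph3a, encoding the Rab3 effector rabphilin, was 0.66 higher in si-P1 (adjusted p = 0.0319) and 0.78 higher in si-P1+2 (adjusted p = 0.0282) than in si-Ctrl, from 14 to 58 reads a library, and these calls were lost in 8 and 6 of 16 alternatives. Rabggtb, the β subunit of the enzyme that prenylates Rab proteins, had 6122, 8505, 6393 and 7755 normalized counts in si-P1 against 8634, 10772, 9393 and 10741 in si-Ctrl, and it fell by 0.47 (adjusted p = 0.00970, lost only when these 2 groups alone were fitted). Tbc1d10b, a Rab GTPase-activating protein, was 0.21 lower in si-P2 (adjusted p = 0.0435), a call lost in 10 of 16 alternatives. The remaining calls in si-P1, named after their values were seen, were Rab3ip, an exchange factor that binds Rab3a, at 0.25 higher (adjusted p = 0.00208), and Gdi2, which extracts GDP-bound Rab proteins from membranes, at 19436 normalized counts in si-P1 against 23670 in si-Ctrl (−0.28, adjusted p = 0.00616).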

How the data were processed

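Libraries were made from INS-1 832/13 mRNA with a stranded TruSeq kit. Per the labels, the authors checked reads with FastQC (0.11.8) and MultiQC (1.7), quantified them with Salmon (0.14.0) against rat Rnor_6.0 and normalized them with DESeq2 (1.25.10). The deposited values are a signal, namely counts divided by a size factor of the library. Whole reads were recovered from their steps: 100% of values were whole within 0.001, and the totals were 16679934 to 56926609 reads. All 20 columns matched a sample.

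The main test was limma (3.58.1, R 4.3.3), eBayes with trend on log2(value + 1), two-sided, with 5 group means over all 20 libraries (15 residual degrees of freedom). Genes above 0 in 50% or more of the libraries entered (15802 of 23487; 4799 genes were 0 throughout), and p-values were adjusted by Benjamini-Hochberg over all of them, with a threshold of 0.05. A fold change on this scale understates the change of low genes. The alternatives were a pseudocount of 0.5, no filter, equal totals, edgeR's quasi-likelihood test (4.0.16) and DESeq2 (1.42.0) on the recovered reads, only the groups compared, the replicate number as a block, untransfected cells as controls, and each library left out. Scripts were tested on simulated data.

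Same-numbered libraries were taken as paired where the correlation of their deviations from the group means was over 0.1 in all 4 pairs (10968 genes with a mean of at least 100). This held for si-P1 with si-P2 (0.24 to 0.44), si-P1+2 with si-P1 (0.24 to 0.61), si-P1+2 with si-P2 (0.37 to 0.63) and si-Ctrl with untransfected (0.20 to 0.46), and for none of the Piezo siRNA groups with si-Ctrl.

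The members, lists and rules were chosen with earlier results of these data known. Named genes were all members, Piezo1 and Piezo2, up to 4 pathway genes called with the largest change in each comparison with si-Ctrl, and the 5 genes most like the member whose group means differed most, among genes with a mean of at least 100; 1 of these is not reported here. Sytl2 had more than 1 identifier, and the one of higher mean was kept. Promoters from RefSeq (GRCr8) were matched by symbol for 10 of 10 members; no coordinate of the deposited build was used.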

Additional observations from a re-analysis of the deposited data

Results flagged for a closer look

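Rab3a, Rab3b and Rab27a differed between the effects of the single siRNA pools, since si-P1 against si-P2 is a direct test of that difference. The log2 differences were 0.29 for Rab3a (limma adjusted p = 0.00998), 0.44 for Rab3b (adjusted p = 0.0234) and 0.50 for Rab27a (adjusted p = 0.00339). Each was higher in si-P1 in 4 of 4 same-numbered pairs, which follows from the lack of overlap between these groups. Rab3b lost its call in 5 of 15 alternatives.

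Single libraries far from the other 3 of their group were found in 4 of 48 groups of values. The chance rate of about 1 in 20 does not apply to Exph5. There, any library with a read is flagged when the others of its group are at 0. No excess over chance is read from this count. Rab27b had 6.28 normalized counts in si-P2 replicate 4, where the other 3 libraries had 11.8 to 12.7. Exph5 had 1.45 normalized counts in si-Ctrl replicate 4, 0.618 in si-P2 replicate 1 and 0.559 in si-P1+2 replicate 1, each from 1 or 2 reads where the other libraries of the group were at 0.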

How the results depend on the processing

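No value turned its called direction. Of 1175 values of single members under an alternative, 1128 stayed on their side of the threshold, 14 lost and 33 gained a call, and the cause was not tested. The count of members called was 2 for si-P1 against si-Ctrl, and 1 with only the groups compared, 3 with DESeq2, the replicate block or untransfected controls, and 2 to 5 with a library left out (5 without si-Ctrl replicate 3). For si-P2 against si-Ctrl it was 1, and 0 with only the groups compared, 0 with untransfected controls and 0 to 1 with a library left out (0 without si-P2 replicate 3). For si-P1+2 against si-Ctrl it was 1, and 3 with DESeq2, 2 with equal totals, 0 with only the groups compared, 4 with the replicate block, 2 with untransfected controls and 0 to 2 with a library left out. For si-P1 against si-P2 it was 3, and 4 with edgeR or DESeq2, 6 with only the groups compared, 6 with the replicate block and 2 to 3 with a library left out. For si-P1+2 against si-P2 it was 0, and 1 with DESeq2, 2 with only the groups compared and 3 with the replicate block. For the other comparisons it was 0 throughout. The counts over all genes also moved with the setting, and nothing is read from these counts of members.

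Over all genes, the count called in si-P1 against si-Ctrl was 2109, and 593 with only the groups compared, 3400 with the block and 3820 without si-Ctrl replicate 3; in si-P2 against si-Ctrl 328, and 5 with only the groups compared, 820 with DESeq2 and 1367 with the block; in si-P1+2 against si-Ctrl 752, and 69, 1200 and 1788 under the same settings; in si-P1 against si-P2 2325, and 4072 with only the groups compared and 3724 with the block. In si-P1+2 against si-P2 it was 395, and 1780 with only the groups compared, 870 with DESeq2 and 1361 with the block. In si-P1+2 against si-P1 it was 7, and 62 with DESeq2 and 93 with the block; in si-Ctrl against untransfected 14, and 103 and 207; for the interaction 1, and 87 and 174. With a library left out it was 100 (without si-P2 replicate 3) to 765 (without si-Ctrl replicate 1) in si-P2 against si-Ctrl, and 434 (without si-P1+2 replicate 4) to 2148 (without si-Ctrl replicate 3) in si-P1+2 against si-Ctrl. Untransfected cells as controls gave 2857 in si-P1, 166 in si-P2 and 1298 in si-P1+2. DESeq2 called 2473 genes in si-P1 against si-Ctrl. In si-P1 against si-P2, DESeq2 called 2827 and edgeR 2288. Equal totals gave 781 in si-P1+2 against si-Ctrl.

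In the comparisons with si-Ctrl the replicate numbers did not pair all libraries (correlations of −0.20 to 0.57). With the block Rab3c was called in si-P1 against si-Ctrl (0.34, adjusted p = 0.00206), and Rab3a, Rab3c and Sytl4 in si-P1+2 against si-Ctrl; beside these and the values in the report, the block changed no other member's call. Of 160 values of the named pathway genes, under alternatives added after the data were seen, 41 lost a call. Rab27b and Exph5 are limited by depth.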
